A study of Homo sapiens with 9 samples.

Results

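Apoptosis is carried out by a set of genes that pass a death signal from the cell surface or from the mitochondria to the caspases, and 37 of them were followed here: the death ligand TRAIL and its receptors, their adaptors, the caspases, the BCL2 family, the inhibitors of apoptosis (IAPs) and the proteins that mitochondria release. Each gene was represented by the probe set that the array annotation pairs with its symbol alone, the brightest one where there were several, and 34 of the 37 genes had such a probe set. Of these, 31 reached a log2 signal of 5 in at least 1 array and are called measured below, among 11232 of 18417 genes of the whole array that did so. BIK, BCL2 and BCL2A1 stayed under 5 in all arrays, with mean log2 signals of 3.84, 4.21 and 3.09. TNFRSF10C and BCL2L2 share their probe sets with other symbols and RIPK1 was not analysed here.

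The 9 arrays were of the type Affymetrix Human Gene 1.0 ST and were hybridised with RNA that the labels assign to SK-BR-3, a breast cancer cell line with amplified ERBB2. The arrays fall by their labels into 3 with stable overexpression of TFPIα, 3 with stable overexpression of TFPIβ and 3 with the empty vector. TFPI, tissue factor pathway inhibitor, blocks the start of blood coagulation; TFPIα is secreted and TFPIβ is held at the cell surface. By the methods, all 3 lines carry the same pcDNA3.1/V5/His-pTOPO backbone and come from 1 parental line, and the TFPI lines are selected pools. The labels and the methods name different selection drugs, as given below. The arrays of a line come from separate RNA isolations, so p-values measure the spread between isolations and not between independently made lines.

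In the extrinsic pathway, TRAIL or FAS ligand binds a death receptor, whose adaptor FADD recruits caspase 8. In the intrinsic pathway, BH3-only proteins free BAX and BAK1 to open the outer mitochondrial membrane, and the released cytochrome c builds the apoptosome with APAF1 and caspase 9. BCL2L1 and MCL1 hold BAX and BAK1 back, and XIAP, an IAP, restrains the cascade further down. BIRC2 is another IAP. These transcripts are present before death starts, and much of the pathway is set by cleavage and binding of proteins, which arrays do not measure.

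The array medians lay between 4.78 and 4.88 on the log2 scale. TFPI itself had log2 signals of 5.66, 5.81 and 5.51 in the arrays labelled TFPIα and 5.55, 5.79 and 5.81 in those labelled TFPIβ, against 5.81, 6.48 and 6.45 with the empty vector label. TFPI differed from the empty vector by -0.59 (95% interval -1.01 to -0.16) with the TFPIα label and by -0.53 (-0.96 to -0.11) with the TFPIβ label. The groups overlapped in both comparisons. By the paper, the transfected cDNAs held the coding region only, and probes for the untranslated ends did not detect them. With another algorithm, PLIER, it reports TFPI as upregulated in both lines. The RMA signal used here does not bear out the labels, and the reason for its lower means was not tested. Of 15 luminal markers for the labelled line, ERBB2 had a mean log2 signal of 5.88 over the 9 arrays, KRT8 5.86 and KRT19 4.88. GATA3, GRB7, TFF1, FOXA1 and CDH1 had 5.31, 5.15, 4.88, 4.83 and 4.66. EPCAM, ESR1, SPDEF and TFF3 stayed under 5. Only KRT18, KRT7 and XBP1, of the same luminal list, were high, with 10.40, 10.45 and 9.21. The basal keratins KRT5 and KRT14 had 12.64 and 12.43. The mean of 7 measured basal genes ranged over 8.79 to 9.09 in the arrays labelled TFPIα and 8.65 to 9.51 in those labelled TFPIβ, against 9.23 to 9.54 with the empty vector, and its part in the differences below was not tested. Most luminal markers were thus low and KRT18, KRT7 and XBP1 high, with the line's amplified ERBB2 far below the basal keratins. This goes against the labelled line, and all groups below are named by their labels only.

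No apoptosis gene passed the limma test in any comparison, where passing meant at least a 2-fold difference and an adjusted p (Benjamini-Hochberg) under 0.05. Between the arrays labelled TFPIα and TFPIβ 0 of 31 passed, as did 0.0% of all 17482 probe sets. At an unadjusted p under 0.05 there were 3 of 31 genes (9.68%), against 8.63% of all probe sets: TNFSF10 and MAP3K5 had lower means with the TFPIα label (2 of 31, against 3.94% of all probe sets) and TNFRSF10D a higher one (1 of 31, against 4.7%). The median log2 difference of the 31 genes was 0.10, with 19 above 0 and 12 below, and that of all probe sets was 0.00, with 50.3% above 0. The share of apoptosis genes with a low p was thus near that of the array as a whole.

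Against the empty vector, 0 of 31 apoptosis genes passed with the TFPIα label, where 0.00572% of all probe sets did, and 8 of 31 (25.8%) had an unadjusted p under 0.05, against 14.2%. FADD, CASP6, BAX, CYCS, APAF1 and ENDOG had higher means (6 of 31, against 8.59%), and CFLAR and MAP3K5 lower ones (2 of 31, against 5.58%). The median log2 difference was 0.09, with 18 genes above 0 and 13 below, against 50.0% of all probe sets above 0. With the TFPIβ label 0 of 31 passed, as did 0.0% of all probe sets, and 6 of 31 (19.4%) had an unadjusted p under 0.05, against 4.72%. CASP6, CYCS and ENDOG had higher means (3 of 31, against 2.49%), and TNFRSF10D, MAP3K5 and CASP4 lower ones (3 of 31, against 2.23%). The median log2 difference was -0.02, with 14 genes above 0 and 17 below, against 50.5% of all probe sets above 0. Both comparisons use the same 3 empty vector arrays.

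These counts rest on single arrays. Without replicate 1 of the TFPIα label, the count became 12 between the isoforms and 13 against the empty vector. Without replicate 3 of the TFPIβ label it became 6 between the isoforms and 0 between TFPIβ and the empty vector. For TFPIα against the empty vector it was 2 and 3 without replicates 2 and 3 of the TFPIα label, and 4 without replicate 2 or replicate 3 of the empty vector. For TFPIβ against the empty vector it was 1 without either of those 2 empty vector arrays. Blocking on the replicate number gave 5 between the isoforms. The share of all probe sets was not counted in these fits, so whether the changes are particular to the apoptosis genes was not tested.

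**Figure D1:**
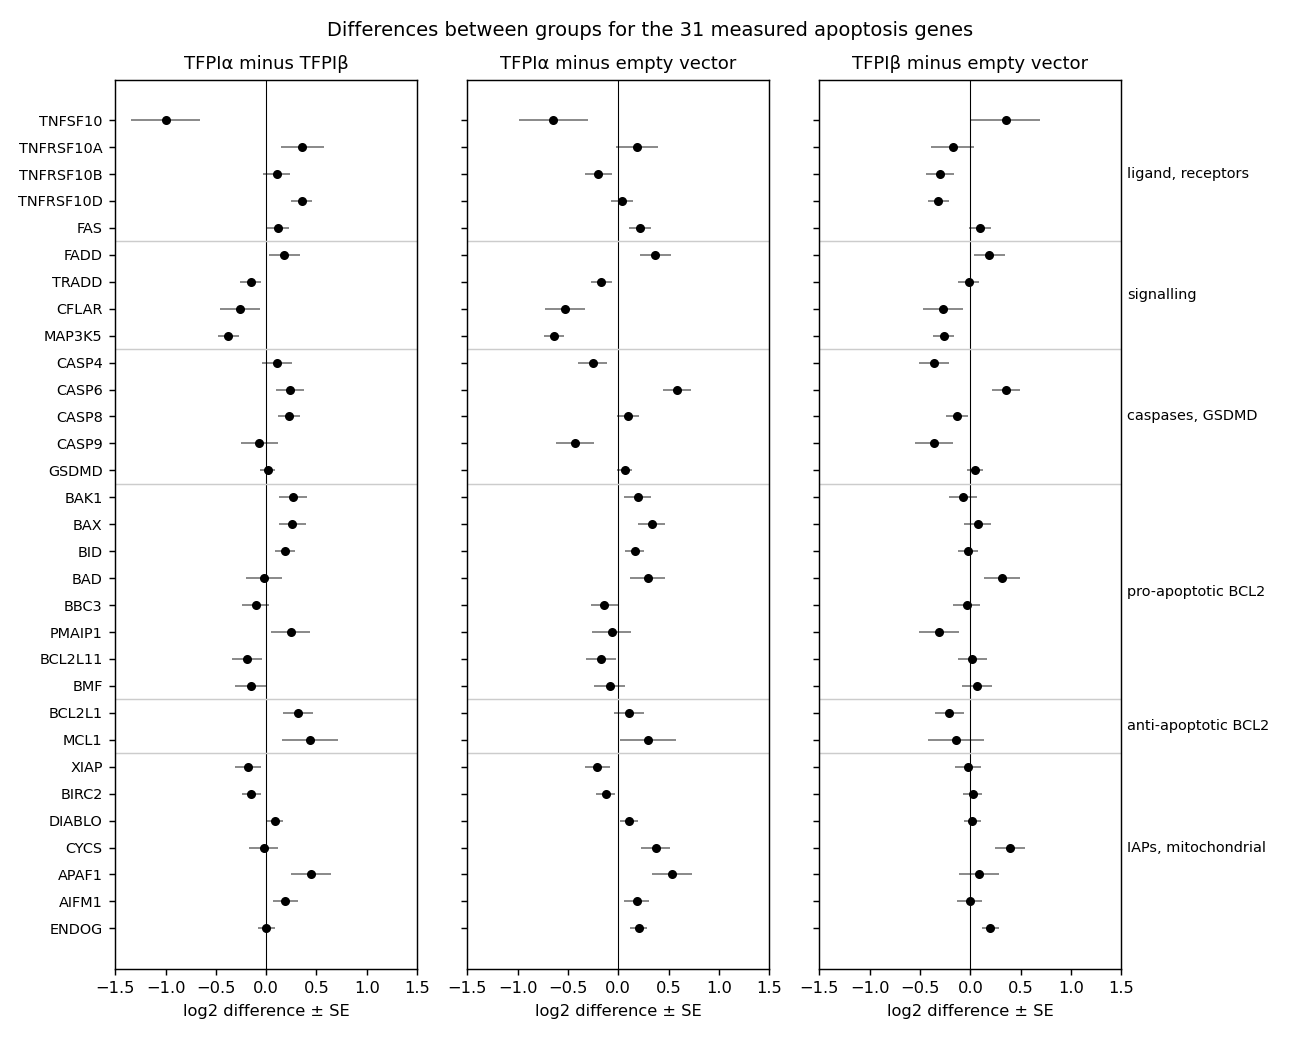
Log2 difference between groups (horizontal axis, points, with bars of 1 standard error from limma) for the 31 measured apoptosis genes, ordered down the page by role, in the 3 comparisons. TNFSF10 lies farthest from 0 between the isoforms, at -0.9998, and MAP3K5 lies below 0 in all 3 panels.

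TNFSF10 encodes TRAIL, the ligand of the death receptors. Its log2 signals were 6.24, 5.27 and 5.48 in the arrays labelled TFPIα and 6.60, 7.23 and 6.15 in those labelled TFPIβ, against 5.90, 6.67 and 6.36 with the empty vector. Replicates 2 and 3 of the TFPIα label were the lowest of the 9 arrays, but its replicate 1 lay above the lowest TFPIβ array, so the groups overlapped. In bulk RNA, fewer cells that make a transcript and less of it per cell cannot be told apart. The log2 difference between TFPIα and TFPIβ was -0.9998 (standard error 0.34, limma adjusted p = 0.532), and it stayed below 0 in 17 of 17 alternative fits, between -1.29 and -0.71 when 1 array was left out. TFPIα differed from the empty vector by -0.65 (95% interval -1.44 to 0.14) and TFPIβ by 0.35 (-0.44 to 1.14).

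The promoter of TNFSF10 is shown because this gene had the widest difference between the isoforms. From the RefSeq promoter windows of GRCh38.p14, which run from 250 bases before to 50 after a listed start, 2 stretches on the minus strand carry a motif, in capitals: an interferon response element (GAAA, any 2 bases and GAAA, here read from its other strand) at chr3:172523598-172523627 and a TATA box (TATAAA) at chr3:172523442-172523471.
TNFSF10 interferon response element: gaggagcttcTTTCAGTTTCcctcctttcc
TNFSF10 TATA box: cctcactgacTATAAAagaatagagaagga
Both strands were searched. The element was present in 3 of the 25 apoptosis genes with a window (TNFSF10, CASP8 and BBC3) and in 4.38% of 27305 genes, and the TATA box in 3 of 25 and in 14.0%. A match of letters is a description and not a site of binding.

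The receptors of TRAIL are TNFRSF10A and TNFRSF10B, which signal death, and TNFRSF10D, a decoy with a truncated death domain. TNFRSF10D had log2 signals of 7.79, 7.94 and 8.02 in the arrays labelled TFPIα and 7.74, 7.51 and 7.45 in those labelled TFPIβ, against 7.90, 7.78 and 7.96 with the empty vector. Every TFPIβ array lay below every array of the other 2 groups. The log2 difference was 0.35 (standard error 0.11, limma adjusted p = 0.532) between TFPIα and TFPIβ, -0.32 (0.11, adjusted p = 1) between TFPIβ and the empty vector and 0.03 (95% interval -0.21 to 0.28) between TFPIα and the empty vector.

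TNFRSF10A had log2 signals of 6.64, 7.25 and 7.32 with the TFPIα label and 6.38, 6.78 and 6.96 with the TFPIβ label, against 6.72, 6.91 and 7.02 with the empty vector. TNFRSF10B had 8.01, 8.23 and 8.03 with TFPIα and 7.97, 8.14 and 7.85 with TFPIβ, against 8.11, 8.55 and 8.21 with the empty vector. The groups of both receptors overlapped in every pair, with log2 differences of 0.36, 0.18 and -0.17 for TNFRSF10A and 0.10, -0.20 and -0.30 for TNFRSF10B in the 3 comparisons (TFPIα with TFPIβ, TFPIα with the empty vector, TFPIβ with the empty vector). Within replicate numbers 1, 2 and 3, TNFRSF10A differed by 0.26, 0.47 and 0.36 between TFPIα and TFPIβ (adjusted p = 0.32 by limma with the number as a block). TNFRSF10B differed by -0.14, -0.41 and -0.35 between TFPIβ and the empty vector (adjusted p = 0.583 by limma with the block), and over all 9 arrays both had an unadjusted p under 0.05 with the block and not without it. FAS, the receptor of FAS ligand, had log2 differences of 0.12, 0.22 and 0.10 in the 3 comparisons, and with the block the second had a limma p of 0.0319 (adjusted p = 0.222).

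MAP3K5, also called ASK1, is a kinase that passes stress and death receptor signals to JNK and p38. Its log2 signals were 7.12, 6.9985 and 6.88 in the arrays labelled TFPIα and 7.34, 7.46 and 7.34 in those labelled TFPIβ, against 7.52, 7.78 and 7.64 with the empty vector. The 3 groups did not overlap in any pair, which held for 1 of the 31 genes (3.23%) and for 0.578% of all probe sets. TFPIα differed from the empty vector by -0.64 (standard error 0.10, limma adjusted p = 0.289), the lowest p among the apoptosis genes. TFPIα differed from TFPIβ by -0.37 (0.10, adjusted p = 0.532) and TFPIβ from the empty vector by -0.27 (0.10, adjusted p = 1). All 3 differences stayed below 0 in 17 of 17 alternative fits.

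CFLAR encodes FLIP, which resembles caspase 8 without its activity and competes with it at the receptor. Its log2 signals were 6.79, 6.55 and 6.54 with the TFPIα label and 7.09, 7.11 and 6.46 with the TFPIβ label, against 6.99, 7.44 and 7.04 with the empty vector. All TFPIα arrays lay below all empty vector arrays, while replicate 3 of the TFPIβ label was the lowest of the 9. The log2 difference between TFPIα and the empty vector was -0.53 (standard error 0.20, limma adjusted p = 0.34). A second probe set of CFLAR gave -0.70 for this comparison, but -0.68 between TFPIα and TFPIβ where the first gave -0.26, and -0.02 between TFPIβ and the empty vector where the first gave -0.27.

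FADD, the adaptor that joins receptor and caspase 8, had log2 signals of 7.60, 7.67 and 7.91 with the TFPIα label and 7.64, 7.46 and 7.54 with the TFPIβ label, against 7.67, 7.32 and 7.09 with the empty vector. Replicate 1 was nearly level in the 3 groups, and the TFPIα arrays overlapped with those of the empty vector. The log2 difference between these 2 groups was 0.37 (standard error 0.15, limma adjusted p = 0.347). TRADD, the adaptor of TNF receptor 1, had differences of -0.15, -0.17 and -0.02 in the 3 comparisons.

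Among the caspases of the 37 genes, CASP6, an executioner that cleaves lamins, had the widest difference. Its log2 signals were 6.48, 6.51 and 6.43 with the TFPIα label and 6.15, 6.21 and 6.36 with the TFPIβ label, against 6.21, 5.80 and 5.65 with the empty vector. The TFPIα arrays lay above all arrays of both other groups, and TFPIβ and the empty vector overlapped through replicate 1 of the empty vector. TFPIα differed from the empty vector by 0.59 (standard error 0.14, limma adjusted p = 0.335), from TFPIβ by 0.23 (95% interval -0.09 to 0.55), and TFPIβ from the empty vector by 0.35 (0.14, adjusted p = 1).

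CASP4, an inflammatory caspase that cleaves GSDMD, had log2 signals of 8.50, 8.54 and 8.9973 with the TFPIα label and 8.60, 8.69 and 8.42 with the TFPIβ label, against 9.03, 8.94 and 8.83 with the empty vector. All TFPIβ arrays lay below all empty vector arrays (log2 difference -0.36, standard error 0.15, limma adjusted p = 1), and the TFPIα arrays were split, 2 low and 1 high. CASP8, the first caspase of the extrinsic pathway, had 7.33, 7.62 and 7.59 with TFPIα and 7.33, 7.17 and 7.39 with TFPIβ, against 7.54, 7.34 and 7.39 with the empty vector. Its groups overlapped in every pair, and the difference between TFPIα and TFPIβ was 0.22 (95% interval -0.03 to 0.48).

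CASP9, the caspase of the apoptosome, had log2 signals of 6.16, 5.72 and 5.56 with the TFPIα label and 6.06, 6.04 and 5.55 with the TFPIβ label, against 6.32, 6.31 and 6.10 with the empty vector. The TFPIβ arrays lay below those of the empty vector, and the TFPIα arrays did so except for replicate 1. The log2 differences from the empty vector were -0.43 (95% interval -0.86 to 0.00) for TFPIα and -0.36 (-0.79 to 0.07) for TFPIβ. With the replicate number as a block they had limma p of 0.0088 and 0.0188 (adjusted p = 0.19 and 0.61). GSDMD, the pore-forming substrate of inflammatory caspases, had differences between 0.02 and 0.06 in the 3 comparisons.

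**Figure D2:**
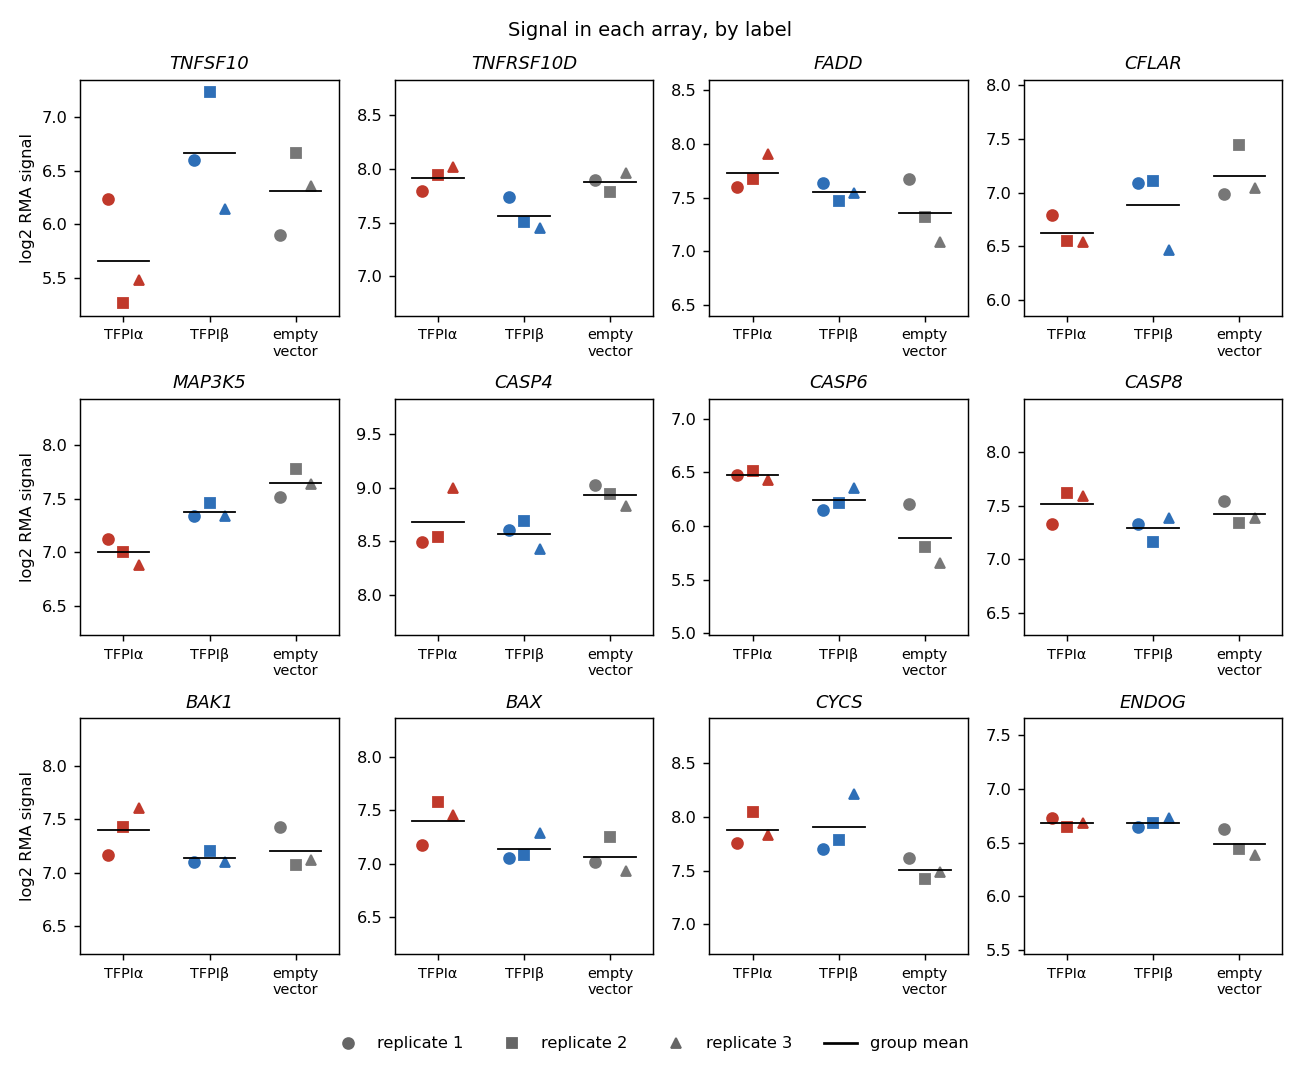
Log2 RMA signal (vertical axis, a span of 2.2 in every panel) of 12 apoptosis genes in each array, by label (horizontal axis), with the replicate number as the symbol and a line at the group mean. The 3 MAP3K5 groups stand apart from each other, while those of TNFSF10 overlap through replicate 1 of the TFPIα label.

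BAX and BAK1 form the pores of the outer mitochondrial membrane. BAX had log2 signals of 7.18, 7.58 and 7.45 with the TFPIα label and 7.05, 7.08 and 7.29 with the TFPIβ label, against 7.02, 7.25 and 6.93 with the empty vector. BAK1 had 7.17, 7.43 and 7.60 with TFPIα and 7.10, 7.20 and 7.10 with TFPIβ, against 7.43, 7.08 and 7.12 with the empty vector. The groups overlapped in every pair for both genes. BAX differed by 0.33 (standard error 0.13, limma adjusted p = 0.346) between TFPIα and the empty vector, and BAK1 by 0.19 (95% interval -0.12 to 0.51) in the same comparison and by 0.27 (-0.05 to 0.58) between TFPIα and TFPIβ.

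The BH3-only genes, whose proteins switch BAX and BAK1 on or their inhibitors off, had no unadjusted p under 0.05 in any of the 3 comparisons without the block. BID, which caspase 8 cleaves, had log2 differences of 0.19, 0.16 and -0.03. BBC3 and PMAIP1, known as PUMA and NOXA and induced by p53, had -0.10, -0.14 and -0.04, and 0.24, -0.07 and -0.31. BCL2L11 (BIM) and BMF were dim, with mean log2 signals of 5.06 and 4.78. BAD, which phosphorylation silences, had log2 signals of 6.66, 6.16 and 6.21 with the TFPIα label and 6.55, 6.34 and 6.21 with the TFPIβ label, against 6.18, 6.21 and 5.77 with the empty vector, where replicate 3 was the lowest of all. With the block its differences from the empty vector, 0.29 for TFPIα and 0.31 for TFPIβ, had limma p of 0.0477 and 0.0369 (adjusted p = 0.242 and 0.669).

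Of the anti-apoptotic BCL2 genes 2 of 5 were measured. MCL1, a short-lived protein that binds BAK1, had log2 signals of 9.67, 10.65 and 10.77 with the TFPIα label and 9.77, 9.92 and 10.10 with the TFPIβ label, against 9.88, 9.96 and 10.36 with the empty vector. Its replicate 1 of the TFPIα label was the lowest of the 9 arrays and its replicates 2 and 3 the highest. The difference between TFPIα and TFPIβ was 0.44 (95% interval -0.20 to 1.07), and it ranged between 0.23 and 0.78 when 1 array was left out, highest without replicate 1 of the TFPIα label. BCL2L1, which encodes BCL-XL, had log2 differences of 0.32, 0.11 and -0.21 in the 3 comparisons, with an interval of -0.02 to 0.65 between the isoforms.

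CYCS, cytochrome c, carries electrons in respiration and builds the apoptosome once released. Its log2 signals were 7.76, 8.04 and 7.83 with the TFPIα label and 7.70, 7.79 and 8.22 with the TFPIβ label, against 7.62, 7.42 and 7.48 with the empty vector. Every array of either isoform lay above every empty vector array, with log2 differences of 0.37 (standard error 0.15, limma adjusted p = 0.346) for TFPIα and 0.40 (0.15, adjusted p = 1) for TFPIβ.

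ENDOG, a mitochondrial nuclease that cuts DNA in the nucleus after release, had log2 signals of 6.73, 6.65 and 6.68 with the TFPIα label and 6.64, 6.69 and 6.73 with the TFPIβ label, against 6.63, 6.44 and 6.39 with the empty vector. Here too both isoforms lay above the empty vector, by 0.20 each (standard error 0.09, limma adjusted p = 0.349 for TFPIα and 1 for TFPIβ), and the isoforms differed by 0.00 (95% interval -0.20 to 0.20).

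APAF1, the scaffold of the apoptosome, had log2 signals of 5.73, 6.15 and 6.29 with the TFPIα label and 5.38, 5.46 and 5.9989 with the TFPIβ label, against 5.50, 5.41 and 5.66 with the empty vector. The TFPIα arrays lay above those of the empty vector, by 0.53 (standard error 0.20, limma adjusted p = 0.34), and overlapped with TFPIβ through its replicate 3. Between the isoforms the difference was 0.44 (95% interval -0.01 to 0.90). With the replicate number as a block it had a limma p of 0.0121 (adjusted p = 0.32). AIFM1, DIABLO, XIAP and BIRC2 had log2 differences between -0.21 and 0.19 in the 3 comparisons, none with an unadjusted p under 0.05.

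Groups that did not overlap were counted over all 31 genes. Between TFPIα and TFPIβ there were 3 (9.68%: TNFRSF10D and CASP6 higher, MAP3K5 lower), against 13.3% of all probe sets. Between TFPIα and the empty vector there were 7 (22.6%), against 23.3%, and DIABLO, which frees caspases from the IAPs, was among them with a difference of 0.10. Between TFPIβ and the empty vector there were 6 (19.4%), against 7.16%. An exact permutation test of 3 against 3 arrays cannot go below p = 0.1, so none was run on single genes.

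Each label carries a replicate number, 1, 2 or 3, which was tested across the groups with a moderated F test. No apoptosis gene passed at an adjusted p under 0.05, as 0.0% of all probe sets did, and 6 of 31 (19.4%) had an unadjusted p under 0.05, against 16.0%. TNFRSF10A had the highest F, 13.9 (limma adjusted p = 0.213), with mean log2 signals of 6.58, 6.98 and 7.10 in arrays numbered 1, 2 and 3. CASP9, TNFRSF10B, APAF1, MCL1 and BAD followed with F of 5.59 to 7.27. Number 1 was lowest in all 3 groups for TNFRSF10A, FAS and MCL1 (3 of 31, 9.68%, against 5.07%), and number 2 was highest in all 3 for TNFRSF10B, FAS and BBC3 (9.68%, against 3.94%). Number 3 was highest in all 3 for TNFRSF10A, MCL1 and APAF1 (9.68%, against 6.58%). The other orders held for 1 gene each (3.23%): number 1 highest and number 3 lowest for CASP9, against 9.11% and 8.3% of all probe sets, and number 2 lowest for AIFM1, against 7.54%. The count of 6 became 2 without replicate 1 or 3 of the TFPIα label or replicate 3 of the TFPIβ label, and 10 without replicate 1 of the empty vector. The share of all probe sets was not counted in these fits.

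**Figure D3:**
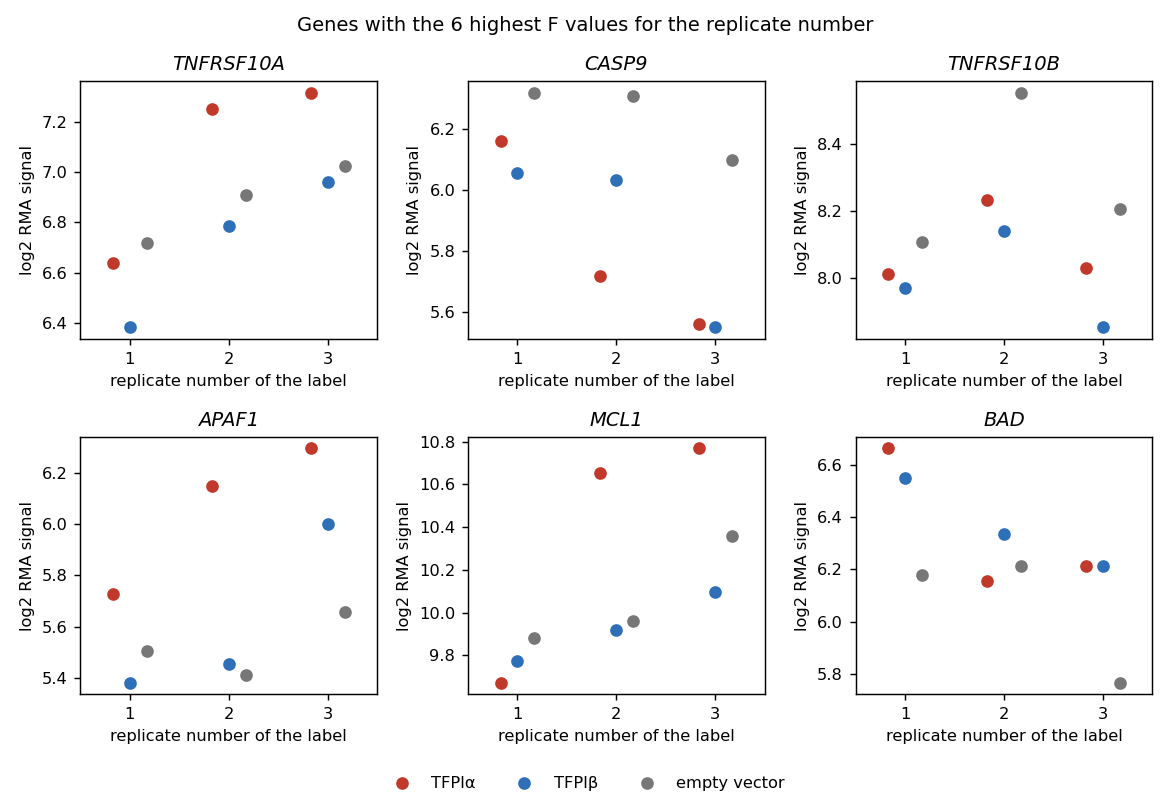
Log2 RMA signal (vertical axis) of the 6 apoptosis genes with the highest F for the replicate number, by that number (horizontal axis) and coloured by label, 1 point per array. The 3 arrays numbered 1 hold the lowest TNFRSF10A signal of each group.

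Replicate 3 of the TFPIβ label stood apart from the other 2 TFPIβ arrays. It lay inside the range of the 3 TFPIα arrays for 18 of 31 apoptosis genes (58.1%) and 52.8% of all probe sets, against 8 and 15 genes, and 32.9% and 29.8% of all probe sets, for replicates 1 and 2. Empty vector arrays 1, 2 and 3 lay inside that range for 17, 12 and 13 genes (43.7%, 33.0% and 38.8% of all probe sets). Without replicate 3 of the TFPIβ label, APAF1, TNFSF10, MAP3K5, CFLAR, AIFM1 and TNFRSF10D had an unadjusted p under 0.05 between the isoforms, with a lowest limma adjusted p = 0.122. The share of all probe sets was not counted without that array.

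A list of 25 proliferation genes differed between the same arrays. Its mean log2 signal was 8.19, 8.34 and 8.42 with the TFPIα label and 7.30, 6.25 and 8.43 with the TFPIβ label, against 7.50, 6.60 and 7.37 with the empty vector. The median log2 difference of the list was 1.03 between TFPIα and TFPIβ, with 25 of 25 genes above 0, 1.13 between TFPIα and the empty vector, again 25 of 25, and 0.16 between TFPIβ and the empty vector, with 18 of 25. No gene of the list passed the test, and PCNA, the sliding clamp of DNA replication, had differences of 0.87, 1.32 and 0.45. The part of this level in the differences of the apoptosis genes was not tested.

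**Figure D4:**
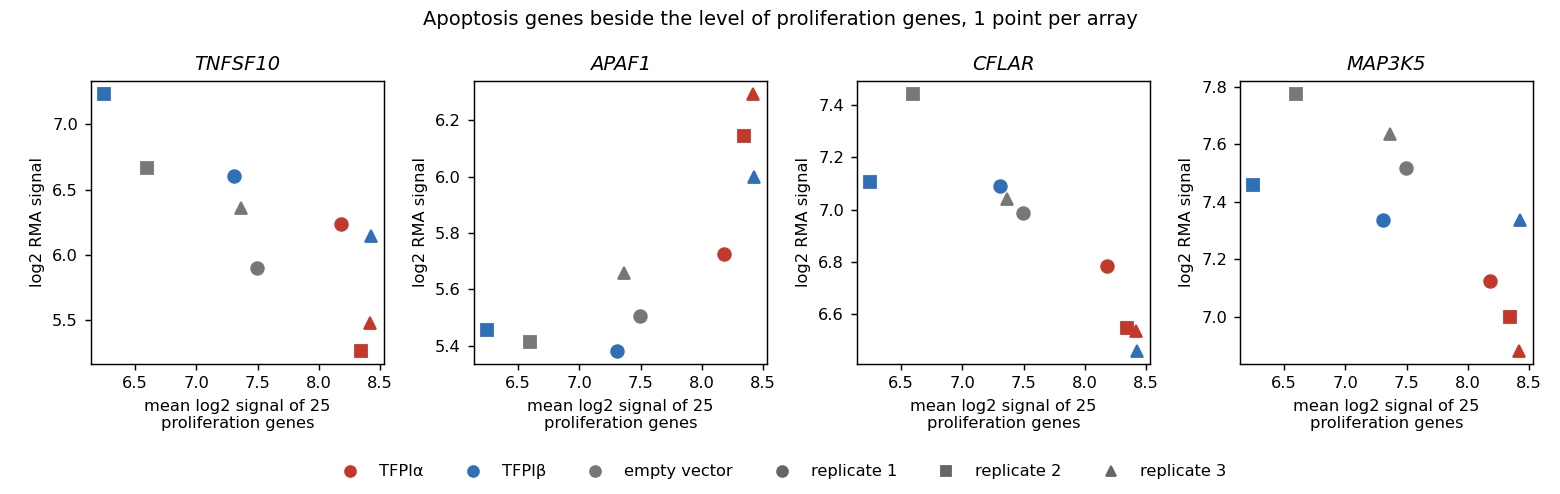
Log2 RMA signal of 4 apoptosis genes (vertical axes) against the mean log2 signal of 25 proliferation genes (horizontal axis), 1 point per array, with the label as colour and the replicate number as symbol. Replicate 3 of the TFPIβ label sits at 8.43 on the horizontal axis, beside the 3 TFPIα arrays.

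Interferon-stimulated genes, among which TNFSF10 is known to count, were read from a separate list that does not hold it. The mean of 23 measured genes was 5.87, 5.60 and 5.80 with the TFPIα label and 5.99, 5.72 and 5.59 with the TFPIβ label, against 6.25, 5.78 and 5.79 with the empty vector. Replicate 1 was the highest array of each group in this list. The median log2 difference was 0.05, -0.14 and -0.13 in the 3 comparisons, and 0 genes passed.

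The other genes of the death pathways were listed apart from the 37. Of 12 measured further genes of the death receptor pathway 0 passed in each comparison, with median log2 differences of 0.07, 0.15 and 0.09. Of 14 further caspases and substrates 0 passed, with medians of 0.11, 0.13 and 0.01. CASP1 and its decoy CARD16 had 0.38 and 0.54 between TFPIα and TFPIβ. CASP14, a caspase of the epidermis, had -1.56 in this comparison (standard error 0.72, limma adjusted p = 0.532). Its log2 signal stayed under 5 in all TFPIα arrays and in replicate 3 of the TFPIβ label. The CASP14 groups thus overlapped, and the difference rests on the other TFPIβ arrays. Of 14 further BCL2 family genes 0 passed, with medians of -0.06, 0.05 and 0.07, and MOAP1, a partner of BAX, had -0.46 between the isoforms and -0.44 between TFPIα and the empty vector. Of 14 further IAP and mitochondrial genes 0 passed, with medians of 0.07, 0.08 and 0.07. NAIP, an IAP that senses bacterial proteins, had -0.53 and -0.45 in the same comparisons, and PPIF, the cyclophilin of the permeability transition, 0.41 and 0.54. The list of p53 targets is not apart from the 37, since it holds TNFRSF10B, FAS, BBC3, PMAIP1, BAX and APAF1. Of its 21 measured genes 0 passed, with medians of 0.22, 0.01 and -0.05.

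The promoters of MAP3K5 and CASP6, the genes with the lowest p between TFPIα and the empty vector, are shown for comparison with that of TNFSF10. In the windows searched each held GC boxes (GGGCGG) and no other motif searched, and 1 box of each is given in capitals, on the minus strand at chr6:136792514-136792543 and at chr4:109703476-109703505.
MAP3K5 GC box: cgggtggcgaGGGCGGgctgcaccccgagc
CASP6 GC box: cgggggcaggGGGCGGggccgccgaggaag
The GC box was present in 20 of 25 apoptosis genes with a window and in 48.3% of 27305 genes, and a CCAAT box (CCAAT) in 14 of 25 and in 39.7%. A STAT element (TTCNNNGAA), whose bases can be shared with the interferon response element, was present in 1 of 25 (CASP8) and in 9.38%. Of the E2F elements, TTTCCCGC was present in 0 of 25 and in 1.98%, and TTTGGCGC in 0 of 25 and in 0.795%. Genes with several listed starts had several windows, and a gene counted once. The 25 apoptosis genes had 47 windows and the 27305 genes 35116, so the apoptosis genes had more windows each. By window, the GC box was in 34 of 47, against 45.0% of all windows, and the CCAAT box in 16 of 47, against 34.6%. The interferon response element was in 3 of 47, against 3.57%, and the TATA box in 3 of 47, against 11.5%.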

How the data were processed

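Total RNA of 9 samples, 3 per label, was hybridised to Affymetrix Human Gene 1.0 ST arrays. Signals were made by the authors with the RMA algorithm of Partek's software, whose version is not given in the sources used here, and the deposited values are taken as log2 from their range. The labels name puromycin and the methods neomycin for selection.

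At the filter level of the methods, a probe set was kept if its log2 signal reached 5 in any array, which held for 17482 of 33297, a smaller number than the methods state for this filter, for a reason not given in the sources used here (11838 with 1 symbol, 1150 with several and 4494 with none in the platform annotation). A single limma (version 3.58.1, R 4.3.3) fit held all 9 arrays (lmFit and eBayes), with Benjamini-Hochberg adjustment over the 17482 probe sets. Calls needed a 2-fold difference or more and an adjusted p under 0.05. The replicate number was tested with a moderated F test beside the group. The plots were made in matplotlib 3.10.9 (Python 3.11.15). The number of arrays limits the precision.

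The members and lists were chosen with earlier results of these data known. Array values are given for every member with an unadjusted p under 0.05 in a comparison, the 5 with the highest F for the replicate number, and BAK1, TNFSF10, CASP4 and CASP8. BAD, the motifs and the promoters shown were added after the values were seen. Promoter windows are RefSeq's, matched by symbol for 25 of 31 genes.

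Arrays of the same replicate number deviated together. Correlations of deviations from the group means were 0.137 to 0.594 over the 9 pairs with the same number. Over the other 18 pairs they were -0.512 to 0.266. The main fit did not pair the arrays, so its standard errors, intervals and p do not use the pairing. A fit with the replicate number as a block was an alternative. The alternatives were a replicate block, a model without variance moderation, a fit of the compared groups alone, no filter, a filter at 6, median-centred arrays, a robust and trended prior, the mean over a gene's probe sets, a threshold of 0.10 for the adjusted p, and the omission of each array.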

Additional observations from a re-analysis of the deposited data

How the results depend on the processing

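No apoptosis gene passed under any alternative in any comparison, the lowest limma adjusted p being 0.122 between TFPIα and TFPIβ, 0.128 between TFPIα and the empty vector and 0.583 between TFPIβ and the empty vector. With the replicate block, 5, 9 and 7 of 31 genes had an unadjusted p under 0.05 in these comparisons, with lowest adjusted p of 0.32, 0.172 and 0.583, and the block changed no call. FADD and ENDOG lost such a p with the block between TFPIα and the empty vector, and CASP4 and ENDOG between TFPIβ and the empty vector. The one-way model without moderation gave 3 of 31 between TFPIα and the empty vector, where limma gave 8. Leaving out 1 array gave 2 to 12, 2 to 13 and 0 to 7 genes in the 3 comparisons and 2 to 10 for the replicate number. The share of all probe sets with such a p was counted in the main fit only. Among the differences of apoptosis genes with an unadjusted p under 0.05 in the comparison concerned and those of BAK1, TNFSF10, CASP4 and CASP8, 2 turned sign when 1 array was left out: CASP4 between TFPIα and TFPIβ ranged between -0.054 and 0.20, the lowest without replicate 3 of the TFPIα label, and BAK1 between TFPIβ and the empty vector between -0.14 and 0.037, the highest without replicate 1 of the empty vector. The cause was not tested. Over all 31 genes, 6, 4 and 12 turned sign in the 3 comparisons when 1 array was left out, among them the difference of TNFRSF10D between TFPIα and the empty vector and that of ENDOG between the isoforms. With 3 arrays per label, differences whose interval holds 0 cannot be told from 0. The 95% intervals are for single genes, without adjustment over the 17482 probe sets, so an interval without 0 is not a call.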
